A study of Mus musculus with 300 samples.

Results

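The livers of F2 males were examined for transcripts that vary from animal to animal, for transcripts that vary together, and for transcripts whose levels fall into separate peaks. The animals were the 147 livers labelled as F2 males less the animal numbered 2308, which left 146 of the 300 animals in the series. Inbred MRL/MpJ (MRL) mice were crossed to SM/J (SM) fathers, and the F1 offspring were bred with one another to give F2 animals. Liver RNA of each animal was read on its own Affymetrix Mouse Gene 1.0 ST array, a chip with probes spread along whole transcripts. F2 females and the parental and F1 animals, with 3 males and 3 females each, served only for comparison. All mice ate chow, were 13 weeks old, were housed alone for the last 3 days and went without food for the last 4 hours. The labels give no drug treatment, transgene or engineered allele, and the groups differed by strain, generation and sex.

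Parental inbred animals carry identical copies of each gene, whereas in an F2 intercross both parental alleles segregate. At any one autosomal locus an F2 animal is expected to carry 2 MRL copies, 1 copy of each or 2 SM copies in the ratio 1:2:1. Liver expression in mice also differs widely between the sexes, partly through the pattern of growth hormone release. A transcript that follows 1 locus can therefore show separate levels among F2 animals, and transcripts that answer a shared physiological state, such as feeding, inflammation or stress, can rise and fall together.

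The table holds 34406 Ensembl transcripts on a log2 scale, and the rows were named by transcript identifier only. The reference tables at hand listed none of these identifiers, so genes, gene groups and cell type markers were not assigned, and the liver label was not checked against markers. In the F2 males the values ran from 4.68 to 13.60. The males were run in 13 batches of 5 to 16 males, and the SD over the transcripts of an array ranged from 1.18 to 1.33, with a median of 1.27. Batch means and the slope of each transcript on this array SD took 29.5% of the variance and were subtracted before all SDs, correlations and peaks below. The left-out animal 2308 lay between the sexes in 116 transcripts that separated the parental sexes by over 1 log2 unit without overlap. On a scale from -1 for parental females to 1 for parental males it stood at -0.11, against 0.48 to 1.19 in the 146 F2 males and -1.49 to -0.56 in the 131 F2 females used. A further 4 F2 libraries labelled female were left out of the sex comparisons because they lay between the sexes. The library labelled F1 male 1146 stood at -0.91 on this scale, within the female range, while the other F1 males stood at 0.91 and 0.95. It entered the strain comparison under its label, and the counts without it are given beside the counts with it. These are bulk livers, in which fewer cells of a type and less RNA per cell cannot be told apart.

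The F2 males differed widely in a small share of the transcripts. The median SD over all transcripts was 0.085 log2 units, and the middle of the distribution lay between 0.072 and 0.109 at its quartiles. An SD of at least 0.5 was found for 86 transcripts and an SD of at least 1 for 6. The 200 transcripts of greatest SD had a median SD of 0.480. SDs differed little at the end of the list, with 0.3803 for the last transcript inside it and 0.37997 for the first outside it. These 200 were mostly brighter rows, and 190 of them lay above the median mean level of all transcripts. Their mean levels ran from 5.59 to 11.8 with a median of 8.13, against a median of 6.76 over all transcripts. Of the 200, 119 were also among the 200 most variable in F2 females.

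ENSMUST00000030487_at was the most variable transcript, with an SD of 1.21 over the 146 males. Its deposited level was 6.60 in the lowest F2 male, 10.36 at the median and 12.19 in the highest. The MRL males stood at 11.06, 9.83 and 10.52 and the SM males at 9.31, 9.48 and 11.20, so the strains overlapped. The F2 males spread beyond both strains at either end, furthest at the lower end, and their distribution was single-peaked.

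ENSMUST00000047134_at, with an SD of 1.16, had a different form. Its level was 6.07 in the lowest F2 male, 8.65 at the median and 9.86 in the highest, with a gap between a low and a high group. The MRL males stood at 9.13, 9.39 and 9.15 and the SM males at 6.24, 6.31 and 6.41, without overlap. The F1 males stood at 9.00 and 8.49, with 8.29 in the library labelled F1 male 1146, all nearer the MRL than the SM level.

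ENSMUST00000077667_at and ENSMUST00000026464_at varied widely in males and little in females. ENSMUST00000077667_at had an SD of 1.07 in F2 males, where it ran from 6.54 through a median of 9.25 to 11.65. In F2 females its SD was 0.14 and its range 5.49 to 6.31, entirely below the males. ENSMUST00000026464_at had an SD of 1.01 in F2 males, from 6.58 through 8.99 to 10.47, against an SD of 0.15 in F2 females, from 10.64 through 11.29 to 11.62, entirely above the males. The library labelled F1 male 1146 stood at the female level in both, at 5.65 and 11.22.

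ENSMUST00000073997_at and ENSMUST00000099049_at completed the 6. ENSMUST00000073997_at had an SD of 1.04 and a long upper tail, with 5.30 in the lowest male, 5.82 at the median and 9.68 in the highest. Its MRL males, at 5.61, 5.49 and 5.35, and its SM males, at 5.84, 6.73 and 5.60, overlapped and lay in the lower part of the F2 range. ENSMUST00000099049_at had an SD of 1.03 in F2 males and 1.02 in F2 females. It ran from 6.39 through 9.31 to 11.97 in the males, and its MRL males (10.59, 8.78 and 10.22) overlapped its SM males (9.04, 9.00 and 10.51).

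**Figure D1:**
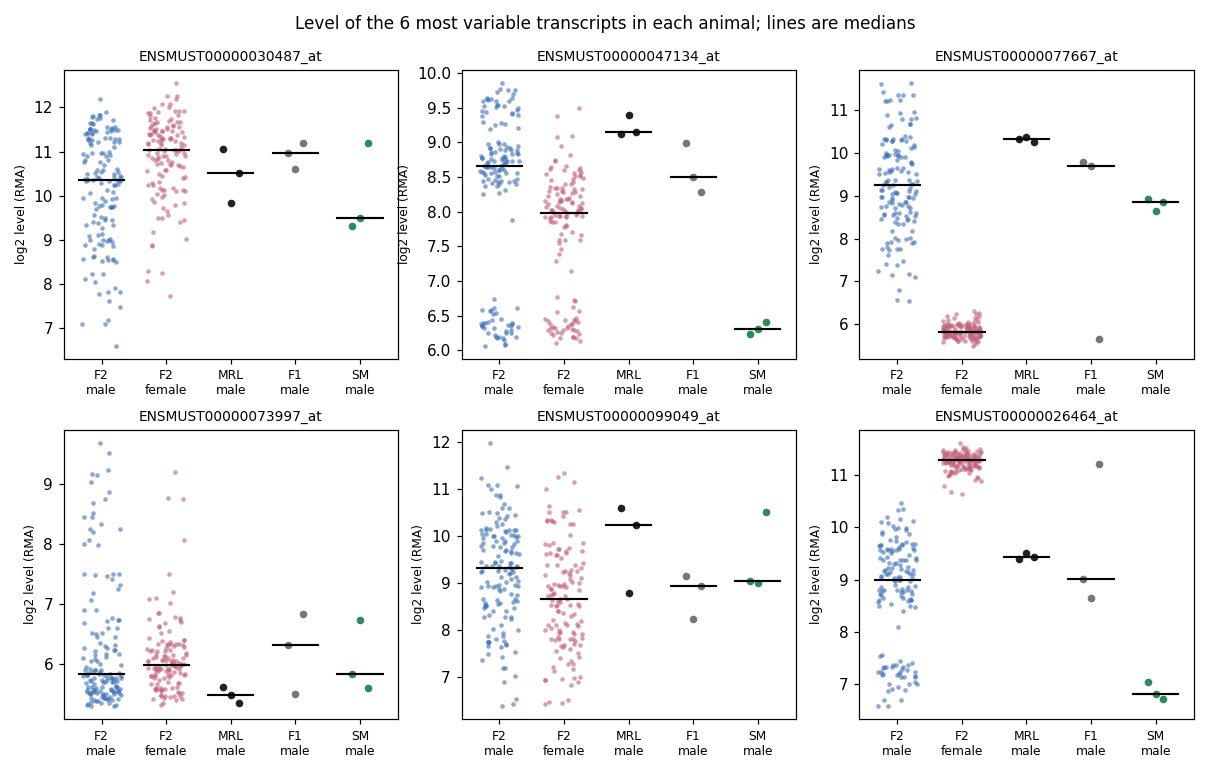
Deposited log2 level (vertical axis) of the 6 transcripts of greatest SD in each F2 male, F2 female, MRL male, F1 male and SM male (1 point per animal; lines are medians). ENSMUST00000047134_at shows separate low and high F2 groups, while ENSMUST00000077667_at and ENSMUST00000026464_at spread in F2 males and stay narrow in F2 females; the F1 male point at the female level in both is the library labelled F1 male 1146.

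Spread was then compared between the sexes, using the absolute deviation of each animal from the median of its sex. Over all transcripts, 954 of 34406 (2.77%) passed a limma test of spread (Benjamini-Hochberg adjusted p under 0.05), 565 with more spread in males (1.64%) and 389 with more in females (1.13%). Of the 200 most variable in males, 60 had more spread in males and 6 more in females. Choosing the list by male SD favours the first direction, and the 200 most variable in F2 females gave 9 and 52. The median ratio of male to female SD was 1.19 over the 200 and 1.04 over all transcripts. Among the 6 most variable, the mean absolute deviation of ENSMUST00000077667_at was 0.913 in males and 0.118 in females, a difference of 0.794 ± 0.058 (SE) with an adjusted p of 4.96e-29 (limma). That of ENSMUST00000026464_at was 0.847 in males and 0.124 in females (adjusted p 2.42e-22, limma). ENSMUST00000030487_at (1.03 against 0.703, adjusted p 0.00843, limma) and ENSMUST00000073997_at (0.744 against 0.420, adjusted p 0.0113, limma) also spread more in males. These transcripts were named for their male SD, which favours more spread in males in this test. For ENSMUST00000047134_at the difference was 0.186 ± 0.091 (SE, adjusted p 0.394, limma); it passed with deviations from the mean (0.264, adjusted p 0.0114) and with squared deviations (0.711, adjusted p 0.00104). For ENSMUST00000099049_at it was -0.005 ± 0.077 (SE, adjusted p 0.991, limma). ENSMUST00000095784_at, chosen after its values were seen, had an SD of 0.968 in males and 0.070 in females. Its mean absolute deviation was higher in males by 0.675 ± 0.067 (SE, adjusted p 9.64e-18, limma). For ENSMUST00000077667_at and ENSMUST00000095784_at all F2 females stood below 6.76, the median mean level of all transcripts in F2 males. Whether so low a level narrowed their spread in females was not tested.

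**Figure D2:**
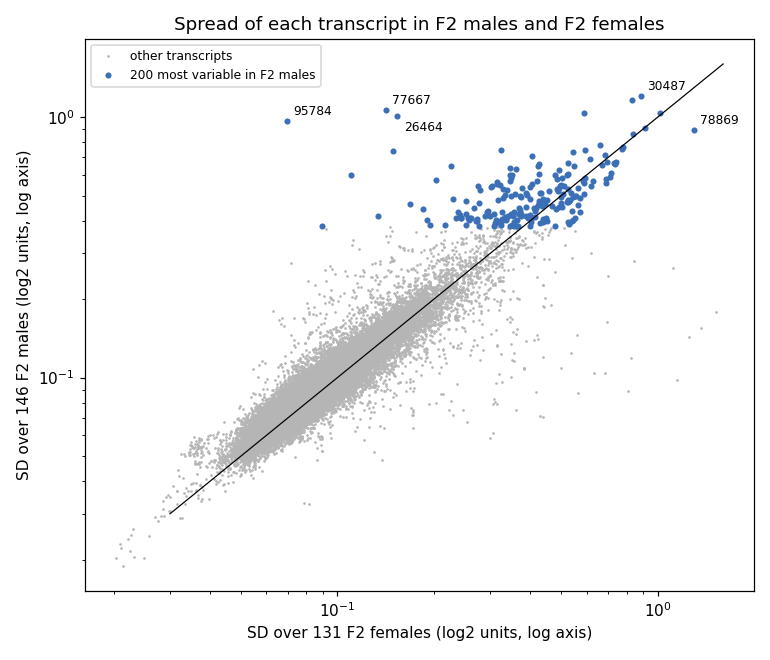
SD of each transcript over 146 F2 males (vertical, log axis) against its SD over 131 F2 females (horizontal, log axis), after subtraction of batch and array SD within each sex; the line marks equal SDs and labels give the last digits of the identifier. Most transcripts follow the line, while ENSMUST00000077667_at, ENSMUST00000026464_at and ENSMUST00000095784_at lie far above it, with male SDs of 1.07, 1.01 and 0.968.

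The male parents gave an independent measure, because no parental animal entered the choice of the 200. In a fit of the 18 parental and F1 animals, 2225 of 34406 transcripts (6.47%) differed between MRL and SM males at an adjusted p under 0.05 (limma), 1614 higher in MRL (4.69%) and 611 with SM above MRL (1.78%). This split was 1301 and 871 with the array SD slope subtracted, and 753 and 467 with batch as a fixed term. Of the 200, 91 differed, 29 higher in MRL and 62 higher in SM. Without the library labelled F1 male 1146 these counts were 2418 and 105. Without MRL male 7 they were 1233 and 76, and without SM male 6 they were 1302 and 90. The median absolute difference was 0.68 log2 units over the 200 and 0.09 over all transcripts. With batch as a fixed term the counts were 1220 and 99, and in the males of the 2 batches that held both strains they were 1629 and 121. ENSMUST00000047134_at differed by 2.90 ± 0.33 (SE, adjusted p 2.71e-05, limma) and ENSMUST00000026464_at by 2.60 ± 0.39 (SE, adjusted p 0.000424, limma), both higher in MRL. ENSMUST00000077667_at stood at 10.34, 10.37 and 10.25 in MRL males and at 8.92, 8.65 and 8.85 in SM males. Its difference of 1.51 ± 0.66 (SE) did not pass with all 18 animals (adjusted p 0.198, limma) and passed without the library labelled F1 male 1146 (adjusted p 1.05e-06, limma). ENSMUST00000030487_at (0.47 ± 0.36, adjusted p 0.484, limma), ENSMUST00000073997_at (-0.57 ± 0.41, adjusted p 0.454, limma) and ENSMUST00000099049_at (0.35 ± 0.61, adjusted p 0.779, limma) did not pass. For ENSMUST00000030487_at a difference of 1.14 passed with batch as a fixed term and in the males of the 2 shared batches, and one of 1.07 without SM male 6. For ENSMUST00000073997_at a difference of -0.84 passed in the males of the 2 shared batches (adjusted p 0.0473, limma).

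Covariation was concentrated among the variable transcripts. Of the 19900 pairs among the 200, 949 (4.77%) had a Pearson r of at least 0.5 in size, 851 positive and 98 negative, against 0.064% of all pairs of transcripts. The 200 were chosen for their variance, so the shares are set side by side as a description. At least 1 such pair was found for 174 of the 200. In F2 females 614 of the same pairs reached this size. The 553 pairs that did so with the same sign in both sexes were 58.3% of the male pairs and 90.1% of the female pairs, and no pair did so with opposite signs. Some of these pairs may be near copies of one row: 107 pairs had an r of at least 0.95, and such pairs joined 96 rows into 35 blocks of up to 7 rows. Rows of 1 gene share probes on arrays of this kind, and without an annotation shared probes and shared regulation cannot be told apart. With 1 row kept for each of the 139 blocks, 386 pairs remained past the threshold (4.02%). This block threshold was chosen after the data were seen.

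Average-linkage clustering on 1 - r, cut at 0.5, gathered 96 of the 200 into 11 modules of 5 to 32 rows. Modules 3, 4 and 5 were each made of 1 or 2 blocks, so most of their rows may be repeats of a few genes. Modules 1, 2, 6, 7 and 8 held rows of 5 or more blocks. The counts of module rows that differed between the strains or spread more in males stand against 91 and 60 of the 200, and against 6.47% and 1.64% of all transcripts. The 200 were chosen by male SD, so a share near that of the 200 is no result about a module.

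**Figure D3:**
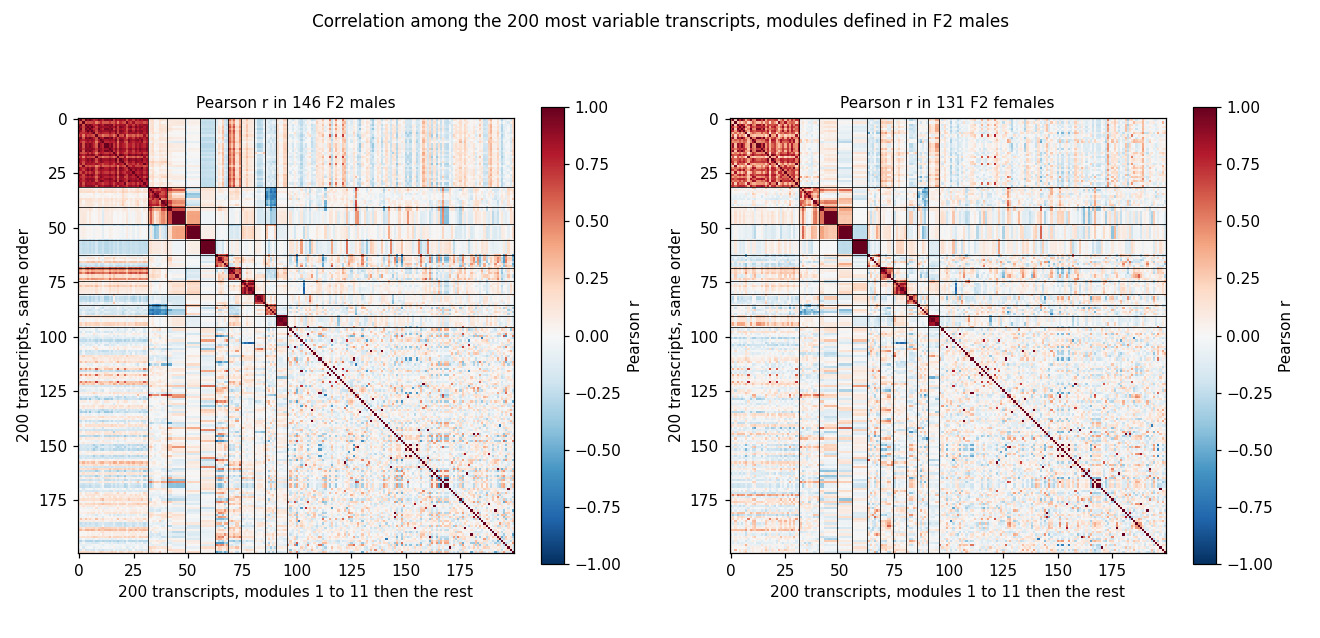
Pearson r between the 200 most variable transcripts, ordered by module from 1 to 11 and then the rest, in 146 F2 males and 131 F2 females (colour, from -1 to 1; black lines bound the modules). Module 1, the square at the upper left with 32 rows, has a median r of 0.81 in males and 0.60 in females.

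Module 1 was the largest, with 32 rows in 18 blocks and a median r of 0.81 in F2 males and 0.60 in F2 females. Its most central transcripts were ENSMUST00000070968_at and ENSMUST00000087717_at, and its most variable was ENSMUST00000073997_at. ENSMUST00000070968_at stood at 7.78 in the lowest F2 male, 8.34 at the median and 10.46 in the highest, and ENSMUST00000087717_at at 7.36, 7.97 and 10.04. Both thus had most males close together and a few far above. The mean of the module, with each transcript scaled to its own SD, was -1.42 in the lowest male, -0.25 at the median and 3.58 in the highest, with a skewness of 1.59. Parental males were placed by deposited levels, as the mean distance from the F2 male mean in F2 male SDs. Batch and array SD were not subtracted from these levels, so the scale differs from that of the F2 males. The MRL males stood at -0.53, -0.33 and -0.49 and the SM males at -0.44, 0.81 and -0.62, so the strains overlapped. Among them SM male 7 alone was raised. Between the strains 7 of the 32 differed (5 higher in SM), a smaller share than in the 200, and 9 had more spread in F2 males than in F2 females, about the share in the 200.

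Module 2 held 9 rows in 8 blocks, with a median r of 0.76 in males and 0.48 in females. ENSMUST00000085102_at, its centre, ran from 6.45 through 7.85 to 8.82 in F2 males, and ENSMUST00000025944_at from 7.90 through 8.91 to 9.70. None of the 9 passed the strain test, and 7 had more spread in males, against 60 of the 200. Parental males of 1 strain differed widely in this module. ENSMUST00000085102_at stood at 8.26, 6.99 and 8.35 in MRL males 6, 7 and 8, and at 7.94, 6.75 and 8.33 in SM males 6, 7 and 8. Male 7 of both strains was low, at -1.15 and -1.13 by the deposited-level measure used for parental males in module 1. Both were run in batch 2, as was MRL male 8, which stood at 0.85.

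Module 3 held 8 rows in 2 blocks, and its central ENSMUST00000049849_at ran from 7.01 through 7.76 to 9.60 in F2 males and from 6.72 through 7.07 to 8.11 in F2 females. Its rows were higher in SM for 3 of 8, and for 6 of 8 without the library labelled F1 male 1146, and 6 had more spread in F2 males. Module 4 held 7 rows in 2 blocks. ENSMUST00000113308_at ran from 7.62 through 8.76 to 10.03 in F2 males, and none of the 7 rows passed the strain or the spread test. Module 5, with 7 rows in 1 block and a median r of 0.99, had all 7 higher in SM. Its ENSMUST00000081318_at stood at 7.34, 7.53 and 7.73 in MRL males and at 8.41, 8.65 and 8.65 in SM males, a difference of -1.04 ± 0.22 (SE, adjusted p 0.00741, limma). This transcript spread more in F2 females, with a mean absolute deviation of 0.336 in males and 0.468 in females (adjusted p 0.0220, limma).

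Module 6 joined the most variable transcript, ENSMUST00000030487_at, with 5 others. Its median r was 0.60 in males and 0.23 in females. The central ENSMUST00000035488_at ran from 6.18 through 7.93 to 9.33 in F2 males and from 9.38 through 10.07 to 10.67 in F2 females, without overlap between the sexes. Its mean absolute deviation was 0.491 in males and 0.172 in females (adjusted p 2.50e-17, limma), and 4 of the 6 rows spread more in males. Module 7 held 6 rows in 5 blocks around ENSMUST00000075982_at and ENSMUST00000079034_at. ENSMUST00000075982_at stood at 6.22 in the lowest F2 male, 6.98 at the median and 11.71 in the highest, a long upper tail that F2 females shared (6.21, 7.02 and 11.78). None of its 6 rows passed the strain test, and 1 did without the library labelled F1 male 1146. With batch as a fixed term both named rows passed, higher in SM. The differences were -1.23 for ENSMUST00000079034_at (adjusted p 0.00312, limma) and -0.714 for ENSMUST00000075982_at (adjusted p 0.0235, limma). ENSMUST00000079034_at also passed without SM male 6 (-1.23, adjusted p 0.00134, limma).

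Module 8 held 6 rows in 5 blocks, all 6 higher in SM males. ENSMUST00000108501_at stood at 8.30, 8.44 and 8.45 in MRL males and at 9.31, 9.38 and 9.53 in SM males. The difference was -1.01 ± 0.07 (SE, adjusted p 1.96e-07, limma). Its F2 males ran from 8.02 through 9.06 to 9.83, which covers the levels of both parents. The median r of the module was 0.78 in males and 0.74 in females.

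Relations between modules were measured on their mean levels. The means of the 8 largest modules gave 28 relations, of which 5 passed a two-sided permutation test after Benjamini-Hochberg adjustment over the 28. The modules were cut by r in these same males, which constrains the r left between them. These p values are therefore not an independent test. Modules 2 and 3 had an r of 0.50 (rho 0.52, 0.50 without the 2 animals farthest from the median, adjusted p 0.00014 by permutation), with 0.21 to 0.94 within the 12 batches that held at least 6 males. Modules 1 and 7 had an r of 0.50 (rho 0.48, 0.43 without those animals, adjusted p 0.00014 by permutation), with 0.07 to 0.92 within batches. Modules 3 and 4 had an r of 0.35 (rho 0.26, 0.30 without the 2 animals, adjusted p 0.00028 by permutation), and within batches r ran from -0.14 to 0.80. Modules 1 and 5 had an r of -0.26 (rho -0.28, adjusted p 0.00861 by permutation), from -0.66 to -0.09 within batches. Modules 2 and 4 had an r of -0.24 (rho -0.25, adjusted p 0.0231 by permutation), from -0.61 to 0.23 within batches. The sign of the relation therefore held in each of these 12 batches for modules 2 and 3, 1 and 7, and 1 and 5. It did not hold in all 12 for the other relations named. In F2 females modules 2 and 4 were related with an r of 0.30. The difference of -0.54 between the sexes passed a permutation of the sex labels (adjusted p 0.00028 over the 28 relations), and no other relation did. This test of the module relations was added after the data were seen.

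How far each leading transcript reached into the whole table was measured by regressing every other transcript on it, with batch and array SD in the fit. The module centres were chosen for their mean r with their module in these same males. Their counts, above all those among the variable transcripts, follow in part from that choice and are given as a description. ENSMUST00000070968_at, the centre of module 1, covaried with 4622 of 34405 transcripts (13.4%) at an adjusted p under 0.05 (limma) and with 62 of the other 199 variable ones. ENSMUST00000075982_at of module 7 covaried with 4541 (13.2%) and 61 of 199, and ENSMUST00000073997_at with 3580 (10.4%) and 44 of 199. These 3 counts moved with the first principal component of the residuals, which took 7.23% of the variance: with it in the fit they were 453, 286 and 75. ENSMUST00000035488_at covaried with 2451 (7.12%), 49 of them among the 199, and ENSMUST00000030487_at with 2099 (6.1%), 40 of them among the 199. Both counts moved with the array SD, to 13362 and 4650 without that slope. ENSMUST00000049849_at of module 3 covaried with 1547 (4.5%) and 34 of 199.

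The other leading transcripts reached fewer transcripts of the table. ENSMUST00000047134_at, the second in SD, covaried with 87 transcripts (0.253%) and 10 of 199, and ENSMUST00000099049_at, the fifth in SD, with 57 (0.166%), all positively, and with 0 of 199. ENSMUST00000108501_at of module 8 covaried with 114 (0.331%; 6 of 199), ENSMUST00000026464_at with 189 (0.549%; 15 of 199) and ENSMUST00000081318_at of module 5 with 260 (0.756%; 14 of 199). ENSMUST00000085102_at of module 2 covaried with 478 (1.39%; 25 of 199), ENSMUST00000113308_at of module 4 with 520 (1.51%; 15 of 199) and ENSMUST00000077667_at with 607 (1.76%; 15 of 199). Without the array SD slope the counts were 339 for ENSMUST00000077667_at, 207 for ENSMUST00000113308_at and 118 for ENSMUST00000026464_at. Leaving out batch 2 gave 378 for ENSMUST00000077667_at and 210 for ENSMUST00000113308_at, leaving out batch 9 gave 322 for ENSMUST00000113308_at, and leaving out batch 5 gave 113 for ENSMUST00000026464_at. A large SD thus went with a wide reach for some of these transcripts and not for others.

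The 12 pairs described next were taken as the strongest of their kind in the F2 males or for their shared peaks, so their male r is a description with no test. Pairs picked for a high male r also favour a higher r in males when the sexes are compared. The 3 most positive pairs, led by ENSMUST00000112524_at and ENSMUST00000074082_at with an r of 0.9999, each lay within 1 block. Between blocks, the 5 most positive pairs, a set added after the data were seen, had an r of 0.94 to 0.95.

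ENSMUST00000084342_at and ENSMUST00000030486_at had an r of 0.95 (rho 0.94), with 0.87 to 0.99 within batches. ENSMUST00000084342_at ran from 8.26 through 10.72 to 11.79 and ENSMUST00000030486_at from 9.06 through 11.08 to 12.00 in F2 males. ENSMUST00000084342_at was two-peaked, and r was 0.78 in the 34 males of its low peak and 0.88 in the 112 of its high peak. Their r in F2 females was 0.80, and the difference of 0.14 passed a permutation of the sex labels (adjusted p 4e-05 over the 12 pairs). Both differed between the strains, by -2.21 ± 0.15 and -1.51 ± 0.15 (SE), higher in SM (adjusted p 7.05e-08 and 6.23e-06, limma).

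ENSMUST00000031365_at and ENSMUST00000038816_at of module 1 had an r of 0.95 (rho 0.86), with 0.86 in the 130 males of the main peak of ENSMUST00000031365_at and 0.86 in the 16 above it. ENSMUST00000070968_at and ENSMUST00000029937_at, also of module 1, had an r of 0.94 (rho 0.82), with 0.82 in the main peak of ENSMUST00000070968_at and 0.92 in its 16 high males. Both relations were thus present within the main group of males as well as within the high one. ENSMUST00000105287_at and ENSMUST00000029753_at of module 11 had an r of 0.95 in males and 0.94 in females, with 0.90 in the 31 males of the low peak of ENSMUST00000105287_at and 0.78 in its other 115 males. ENSMUST00000089452_at and ENSMUST00000081776_at had an r of 0.94 (0.92 in females), with 0.92 to 0.98 within batches. For these 4 pairs the difference in r between the sexes did not pass (adjusted p 0.127, 0.0666, 0.629 and 0.257 by permutation, in that order).

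The most negative pairs joined ENSMUST00000044547_at to ENSMUST00000094815_at and ENSMUST00000108501_at, both in 1 block of module 8. With ENSMUST00000094815_at the r was -0.83 (rho -0.83), from -0.94 to -0.58 within batches and -0.79 in F2 females. ENSMUST00000044547_at stood at 9.25, 9.06 and 9.21 in MRL males and at 6.90, 6.71 and 6.62 in SM males, while ENSMUST00000094815_at ran the other way, with 7.98, 8.21 and 8.13 in MRL males and 9.02, 9.06 and 9.20 in SM males. Both have peaks, and part of the relation lies between them. Within the low peak of ENSMUST00000044547_at the r was -0.44 (n = 30) and within its high peak -0.75 (n = 116). Within the 3 peaks of ENSMUST00000094815_at it was -0.22 (n = 37), -0.42 (n = 78) and -0.28 (n = 31).

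**Figure D4:**
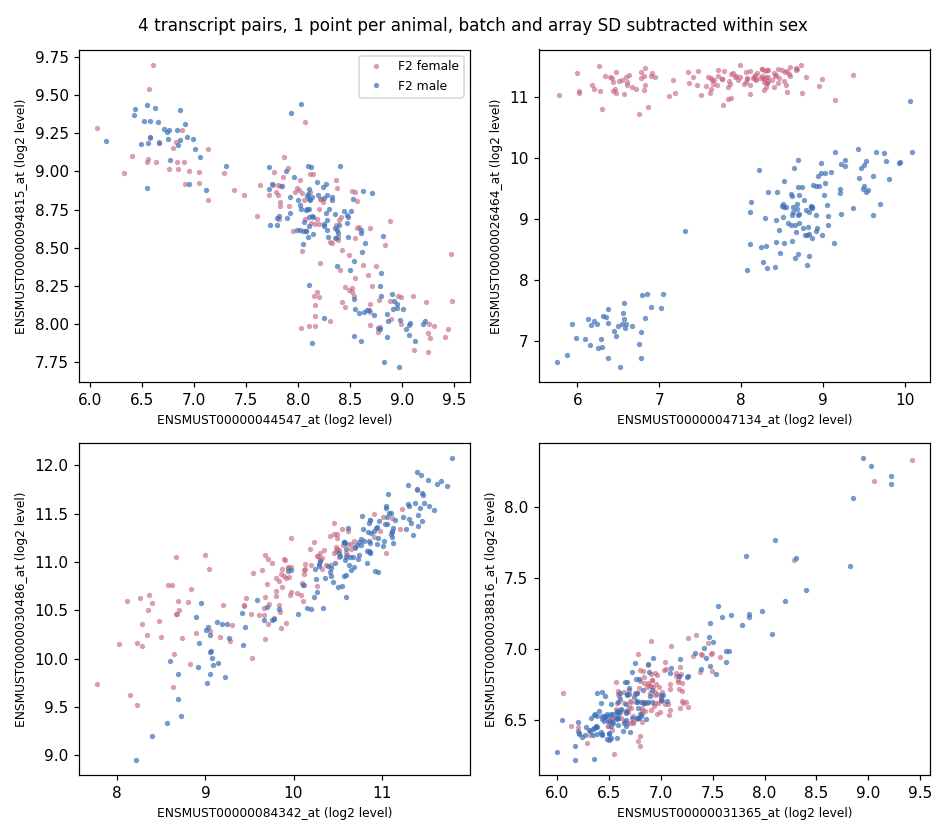
Levels of 4 pairs of transcripts in single F2 males and F2 females (log2 units, batch and array SD subtracted within sex; 1 point per animal). ENSMUST00000044547_at falls as ENSMUST00000094815_at rises in both sexes (r -0.83 and -0.79). ENSMUST00000047134_at and ENSMUST00000026464_at rise together in males (r 0.92) and less closely in females (r 0.29).

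Separate peaks were far more frequent among the variable transcripts than in the whole table. By the mixture rule, with each component holding at least 5% of the males and a valley no higher than 0.8 of the lower peak, 54 of the 200 were two-peaked and 6 three-peaked. Together these were 60 of 200, against 153 of 34406 (0.445%) over all transcripts. Separate peaks raise the SD, so this contrast follows in part from the choice of the 200. With a valley of at most 0.5 of the lower peak 29 of the 200 were peaked, and kernel density peaks gave 19, all of them among the 60. The 60 lay in 41 blocks. Of the two-peaked transcripts 26 of 54 were also peaked in F2 females, and of the three-peaked 5 of 6.

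ENSMUST00000047134_at had the deepest valley. In F2 males 39 of 146 (26.7%, 95% exact binomial interval 19.7 to 34.7%) lay in its low peak at 6.47 and 107 in its high peak at 8.71. Here and below, parental and F1 males were placed by deposited levels, with batch and array SD not subtracted. All SM males were nearest the low peak, and all MRL and F1 males nearest the high one. ENSMUST00000044547_at had 30 males (20.5%, 14.3 to 28.0%) in a low peak at 6.74 and 116 around 8.16, again with SM males low and MRL and F1 males high. Its F1 males stood at 8.28, 8.35 and 8.37, below the MRL males. The low groups of these transcripts were largely different animals, with 10 shared of 30 and 39.

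ENSMUST00000107022_at and ENSMUST00000107021_at, rows of 1 block in module 9, had the parents the other way round. ENSMUST00000107022_at had 36 males (24.7%, 17.9 to 32.5%) in a low peak at 8.69 and 110 around 9.57. The MRL males stood at 8.64, 8.78 and 8.85 and the SM males at 9.97, 10.05 and 10.34. The strain difference was -1.36 ± 0.33 (SE, adjusted p 0.0163, limma). The call was lost without MRL male 6, without MRL male 7 or without SM male 8, and with the trend and robust options of limma. F1 males stood at 9.69 and 9.41, between the strains, and the library labelled F1 male 1146 at 8.05. The median of F2 females was 7.86. For ENSMUST00000107021_at 35 males lay in the low peak, all of them among the 36.

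Low groups were shared between some transcripts of different blocks, a comparison made after the peaks were seen. ENSMUST00000026464_at had 38 males in its low peak, and all 38 were among the 39 low males of ENSMUST00000047134_at. For ENSMUST00000092058_at, in the block of ENSMUST00000026464_at, the count was 38 of 39. The r of ENSMUST00000047134_at and ENSMUST00000026464_at was 0.92 over all males, 0.61 within the low peak of the first and 0.63 within its high peak. In F2 females, where ENSMUST00000026464_at was single-peaked, r was 0.29, and the difference of 0.64 passed a permutation of the sex labels (adjusted p 4e-05). ENSMUST00000004136_at, of another block in module 9, had 36 males in its low peak at 8.11, of which 33 were among the 36 low males of ENSMUST00000107022_at. Their r was 0.84 over all males, -0.02 within the low peak of ENSMUST00000107022_at and 0.56 within its high peak. In F2 females it was 0.39, a difference of 0.45 (adjusted p 4e-05 by permutation of the sex labels). The low group of ENSMUST00000044547_at met the high group of ENSMUST00000094815_at, with 27 animals shared of 30 and 31. Both pairs compared between the sexes here were added after their shared peaks were seen.

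The 6 three-peaked transcripts lay in 4 blocks. All 6 had counts whose separate exact intervals held 25%, 50% and 25%, and all 6 differed between the strains. The shallower valley of each lay at 0.52 to 0.73 of the lower peak. With a valley of at most 0.5 none would therefore count as three-peaked. For ENSMUST00000094815_at 37 males lay around 8.05, 78 around 8.73 and 31 around 9.24. Its MRL males were nearest the low peak, its F1 males (8.81, 8.77 and 8.63) nearest the middle one and its SM males nearest the high one. ENSMUST00000001544_at had 30, 73 and 43 males around 7.90, 8.76 and 9.26, with MRL males high at 9.38, 9.20 and 8.96 and SM males low at 7.72, 7.97 and 7.95. ENSMUST00000034569_at had 39, 80 and 27 males, and ENSMUST00000112393_at 37, 63 and 46, both with the MRL males at the lower and the SM males at the higher levels. The F1 males were nearest the middle peak in these 4 transcripts, except that the library labelled F1 male 1146 was nearest the high peak of ENSMUST00000112393_at. All parental males were nearest the outer peaks for ENSMUST00000094815_at only.

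The two-peaked transcripts divided by the share of animals in the smaller peak. For 29 of the 54 the exact interval of that share held 25%, for 18 it lay below and for 7 above. Of the 29, 26 differed between the strains, against 1 of the 18, and 56 of the 140 single-peaked ones among the 200 (40.0%). Without the library labelled F1 male 1146 these counts were 28, 1 and 68. In all 26 called ones the MRL males and the SM males were nearest opposite peaks by deposited levels. A strain call in the same males favours this placement. Both other F1 males were nearest the larger peak for 25 of the 26. The smaller peak was the low one in 19 of these 26. No test of these shares was made, and rows of 1 block may share probes: the 29 lay in 20 blocks and the 18 in 11.

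Where the smaller peak held fewer animals, it was mostly a high one. Of the 18, 15 had a small high peak, and 12 of these were in module 1. Of the 15, 2 were also peaked in F2 females. Whether such peaks are separate groups or long upper tails was not tested. ENSMUST00000070968_at had 16 males (11.0%, 6.40 to 17.2%) around 9.51 and 130 around 8.36, and ENSMUST00000031365_at 16 around 8.30, with 13 shared. Their valleys lay at 0.52 and 0.60 of the lower peak, so neither would count as peaked with a valley of at most 0.5. SM male 7 was nearest the high peak in both, while the other parental and F1 males were nearest the main peak. ENSMUST00000073997_at, with a deeper valley at 0.23, had 25 males (17.1%, 11.4 to 24.2%) around 8.25, and no parental or F1 male was nearest that level.

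A few transcripts had a small low peak that neither parent occupied, and these were named after their values were seen. ENSMUST00000099391_at had 24 males (16.4%, 10.8 to 23.5%) around 6.72 and 122 around 7.96. Its MRL males stood at 8.70, 8.64 and 8.61, its SM males at 8.74, 8.56 and 8.46 and its F1 males at 8.05, 7.96 and 8.16. The strain difference was 0.06 ± 0.09 (SE, adjusted p 0.731, limma), although F2 males ran from 6.47 to 9.12. All 24 low males were also among the 26 low males of ENSMUST00000035288_at, and 21 of them made up the low peak of ENSMUST00000099390_at. These 3 rows lay in 1 block. In F2 females ENSMUST00000099391_at ran from 6.46 through 8.20 to 9.11 and was three-peaked.

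ENSMUST00000095784_at and ENSMUST00000078869_at showed peaks in males with unlike female patterns. ENSMUST00000095784_at ran from 6.04 through 6.52 to 10.39 in F2 males, with 28 males (19.2%, 13.1 to 26.5%) around 8.58. SM males stood at 8.63, 8.12 and 8.66 and MRL males at 6.40, 7.06 and 6.64, and F2 females stayed between 6.00 and 6.39. ENSMUST00000078869_at had 31 males (21.2%, 14.9 to 28.8%) around 10.23 and 115 around 12.23. Its MRL males stood at 9.80, 9.96 and 10.14 and its SM males at 12.33, 12.52 and 12.58, with F1 males at 12.04 to 12.24. In F2 females its SD was 1.30, against 0.893 in males, and it was two-peaked in both sexes. The difference in mean absolute deviation, male minus female, was -0.23 ± 0.11 (SE, adjusted p 0.403, limma), and more spread in females passed with squared deviations (-1.01, adjusted p 0.0357).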

How the data were processed

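The deposited log2 values came from the authors' RMA run (affy, R 2.11), per the submitters' processing notes. Neither the Ensembl release nor the genome build is given in the sources used here. RMA subtracts background and quantile-normalizes, which equalizes array distributions, and summarizes the probes of a transcript, so rows that share probes covary. No value was filtered. Each transcript was fitted on batch and array SD over the 146 F2 males (separately over 131 F2 females), and the residuals gave SDs and correlations. Mixtures of 1 to 3 equal-variance components were chosen by BIC (mclust 6.1.1). Strain, spread and covariation were tested with limma 3.58.1 (R 4.3.3; Benjamini-Hochberg over all transcripts, 0.05), and single relations by permutation (numpy 2.4.6). The fits were tested on simulated data. The number of arrays limits precision.

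The members, lists and settings were chosen with earlier results of these data known. Rows were named by identifier: the 6 of greatest SD, 2 central rows for each of 8 modules, 4 with the lowest valleys, and the 3 most positive and 2 most negative pairs. Other names in the text were chosen after their values were seen. The planned gene lists and markers could not be applied. Alternatives covered batch, array SD, normalization, left-out libraries, list length and peak finding. No sequences were printed, because no row was matched to a reference sequence.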

Additional observations from a re-analysis of the deposited data

Results flagged for a closer look

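The following values were picked out because a test of the difference between F2 males and F2 females passed after adjustment; no cause was tested. The transcripts were taken from a list chosen by male SD and the pairs for a high male r or shared male peaks, which favours higher values in males. The difference in mean absolute deviation, male minus female, was 0.794 for ENSMUST00000077667_at, 0.723 for ENSMUST00000026464_at, 0.328 for ENSMUST00000030487_at, 0.325 for ENSMUST00000073997_at and 0.319 for ENSMUST00000035488_at. It was 0.232 for ENSMUST00000085102_at, 0.143 for ENSMUST00000070968_at and 0.133 for ENSMUST00000049849_at. In the other direction it was -0.133 for ENSMUST00000081318_at. All 9 adjusted p values lay between 4.96e-29 and 0.0220 (limma). The call of ENSMUST00000070968_at was lost with squared deviations. The difference in r, male minus female, was 0.145 for ENSMUST00000084342_at with ENSMUST00000030486_at, 0.635 for ENSMUST00000047134_at with ENSMUST00000026464_at and 0.451 for ENSMUST00000107022_at with ENSMUST00000004136_at (adjusted p 4e-05 each, permutation of the sex labels). For modules 2 and 4, which were defined by r in the F2 males, it was -0.543 (adjusted p 0.00028, same test).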

How the results depend on the processing

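Between 166 and 199 of the 200 most variable transcripts were the same ones under 21 alternatives. The 949 pairs became 495 with the first principal component subtracted, 573 at an r of at least 0.7, 262 among 100 and 4794 among 500 transcripts, and 386 with 1 row per block. The 60 peaked transcripts became 19 with kernel density peaks and 29 with a valley of at most 0.5. The 2225 strain calls became 1220 with batch as a fixed term and 1233 to 1963 when 1 parental male was left out, with 76 to 90 calls among the 200 in place of 91. The median number of transcripts covarying with the 14 leading ones, 563.5, became 362.5 without the array SD slope and 369.5 with the first principal component as a term. No called result changed its sign. In 53 refits 11 strain and 6 spread differences of single transcripts did. None of these was called in the main fit or in a refit with the other sign. The strain difference of ENSMUST00000075982_at was called with its main sign with batch as a fixed term (-0.714, adjusted p 0.0235, limma). The animal number as a replicate block gave 2457 strain calls and 106 among the 200. Same-numbered parental males correlated by -0.04 to 0.22 in their deviations and females by -0.08 to 0.02. With 3 animals per group, these values cannot decide whether the numbers pair the animals. For single transcripts the strain difference kept its side of the threshold in 694 of 749 refits, gained it in 40 and lost it in 15, of which 9 were of ENSMUST00000004136_at, and the cause was not tested. The spread differences kept theirs in 216 of 232. The 2 batches, the block, and the female list were chosen after seeing the data. With 3 males per strain, small strain differences are not resolved.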
